A study of Homo sapiens with 6 samples.

Results

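The genes described here are feedback inhibitors of signalling through the kinase ERK, together with targets that it induces. The inhibitors are the phosphatase genes DUSP4, DUSP5 and DUSP6, the Sprouty genes SPRY2 and SPRY4, and the Sprouty-related genes SPRED1 and SPRED2. The transcription factor genes ETV4 and ETV5, and PHLDA1, are the induced targets. All 10 are called feedback genes for short. They were taken by gene symbol from the table of 57820 genes, all 10 were found, and all 10 were among the 15605 genes with enough counts to be tested. M14 is an established human melanoma cell line. All cells carried an integrated doxycycline-inducible short hairpin RNA (shRNA) against STAG2, a subunit of the cohesin complex that shapes DNA loops. STAG2-KD (KD) cells were grown with doxycycline for 5 days and wild-type (WT) cells without it, and poly(A) RNA was sequenced from 3 libraries of each condition. Both conditions were grown under puromycin, the KD rests on 1 hairpin in 1 line, and no doxycycline-treated cells without the STAG2 hairpin were analysed here, so loss of STAG2 and exposure to doxycycline cannot be told apart. The study describes its replicates as biologically independent samples, and the labels do not say how the cultures were separated.

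In the ERK cascade, growth factor receptors activate RAS, which activates RAF kinases, then MEK and then ERK. ERK switches on genes whose products turn the cascade down again, and their RNA is widely read as a gauge of how strongly the pathway is running. DUSP proteins remove phosphate from ERK or its relatives, Sprouty and SPRED proteins act upstream at the level of receptors, RAS and RAF, and ETV4 and ETV5 are ETS family factors that carry part of the transcriptional output. The cascade is central to melanoma, where it is often kept active by mutation.

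STAG2 itself was checked first. Levels are given as CPM, the expected counts of a gene per 1000000 counts of the TMM-normalised library size. Its level was 66.5, 34.8 and 28.8 CPM in WT replicates 1 to 3 and 15.96, 7.31 and 6.69 CPM in KD replicates 1 to 3. Every KD library lay below every WT library, and the fitted log2 fold change was -2.12 (SE 0.43, edgeR adjusted p = 0.0342). It stayed between -2.63 and -1.68 with any 1 library left out, but did not pass without WT replicate 2 (edgeR adjusted p = 0.0757), WT replicate 3 (0.0652), KD replicate 2 (0.168) or KD replicate 3 (0.152). Library totals ran from 24895998 to 35181733 expected counts, a floor of 3 counts stood at 0.0870 to 0.112 CPM, and the 10 genes held between 127.63 and 19918.22 expected counts per library. WT replicate 1 stood apart with 5.07% of its counts in mitochondrial genes, against 2.12% to 2.94% in the other libraries, and with the most genes above 0, 20646 against 16028 to 17995.

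Among the 10 feedback genes, DUSP5, DUSP6, SPRY2 and SPRY4 had the largest fitted increases, of 0.42 to 1.31 on the log2 scale. SPRED1 had the largest fitted decrease, -0.41, close in size to the SPRY2 increase of 0.42. DUSP4, SPRED2, ETV4, ETV5 and PHLDA1 ran from -0.18 (ETV4) to 0.15 (SPRED2). None of the 10 passed an adjusted p of 0.05 in edgeR, against 2.59% of all tested genes, and none passed in DESeq2 (6.28% of all genes) or limma-voom (2.64%). At an unadjusted p under 0.05, 3 of the 10 were higher in KD (DUSP5, DUSP6 and SPRY4), against 7.77% of all genes, and none was lower, against 6.98%. With the replicate number as a block in the edgeR model, the same 3 genes passed the adjusted threshold upward (5.10% of all genes) and none passed downward (4.42%). The median log2 fold change of the 10 was 0.14, compared with -0.03 over all tested genes, whose interquartile range ran from -0.42 to 0.34. With 1 library left out the median of the 10 ran from 0.116 (without WT replicate 3) to 0.252 (without KD replicate 1). It was 0.115 with the replicate block.

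**Figure D1:**
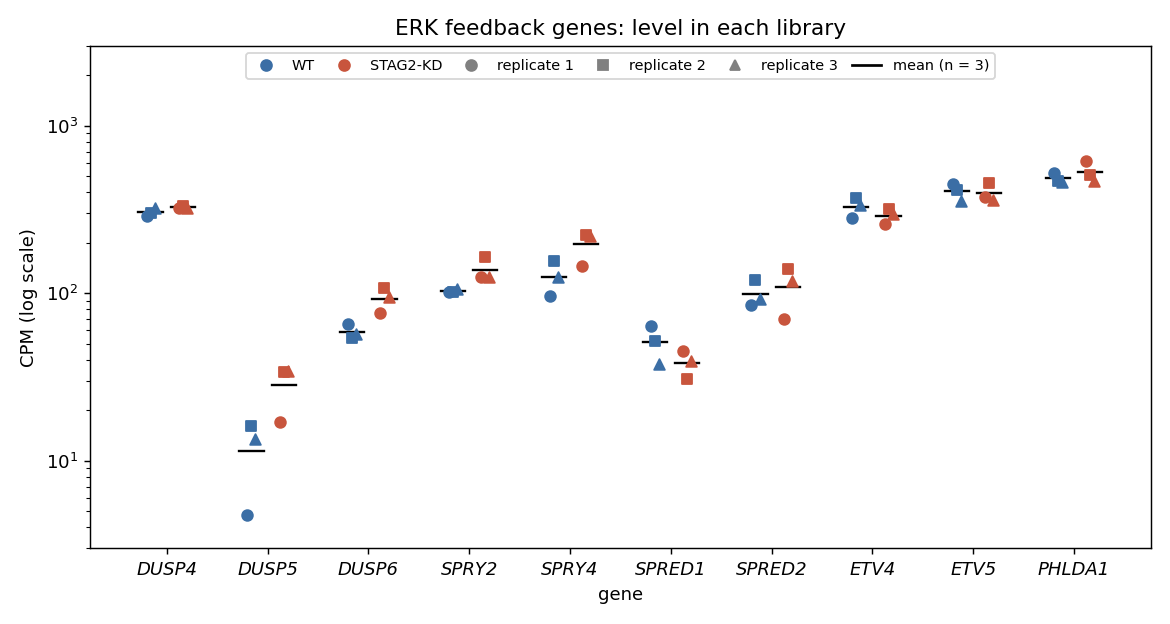
Level of each feedback gene in CPM on a log axis, with 1 point per library, colour for condition, symbol for replicate number and a bar for the mean of 3 libraries. DUSP4, DUSP5, DUSP6 and SPRY2 have all KD points above all WT points, while the other 6 genes overlap between conditions.

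DUSP6, the cytoplasmic phosphatase that acts on ERK with high selectivity, was at 65.7, 53.9 and 56.7 CPM in WT replicates 1 to 3 and at 76.2, 107 and 95.2 CPM in KD replicates 1 to 3. All KD libraries lay above all WT libraries, with KD replicate 1 the nearest to WT. The mean went from 58.8 ± 6.15 CPM to 92.9 ± 15.7 CPM (SD, n = 3 each), a ratio of 1.58. The fitted log2 fold change was 0.66 (SE 0.20, 95% interval 0.21 to 1.11), which did not pass (edgeR adjusted p = 0.142). With the replicate block it was 0.65 and lay just under the threshold (edgeR adjusted p = 0.04996). That call rested on the libraries kept: the blocked adjusted p was 0.0101 without both replicate 1 libraries, 0.346 without both replicate 2 libraries and 0.107 without both replicate 3 libraries, and without both replicate 1 libraries the gene passed in the fit without the block as well (log2 fold change 0.88, adjusted p = 0.0273).

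DUSP5, a nuclear phosphatase that binds and inactivates ERK there, had the fewest counts of the 10 genes and the largest ratio. WT replicates 1 to 3 held 4.76, 16.2 and 13.4 CPM, and KD replicates 1 to 3 held 17.0, 34.04 and 34.4 CPM. The conditions did not overlap, but only narrowly, since KD replicate 1 at 17.0 CPM stood beside WT replicate 2 at 16.2 CPM. The means were 11.5 ± 5.97 and 28.5 ± 9.98 CPM (SD, n = 3 each), a ratio of 2.49. The fitted log2 fold change of 1.31 (SE 0.45, 95% interval 0.30 to 2.32) did not pass in edgeR (adjusted p = 0.195). It passed with the replicate block, at 1.41 (SE 0.23, adjusted p = 0.00413), and the blocked fit still passed with any 1 replicate number left out of both conditions (edgeR adjusted p from 0.000353 to 0.00732). It also passed in edgeR when no filter on low counts was applied (adjusted p = 0.00210), where 1 of the 10 genes was called against 4.54% of all genes, and when both replicate 1 libraries were left out (adjusted p = 0.0200), where 2 of the 10 were called against 4.73%. In WT replicate 1 its expected count was 127.63 and that of the pseudogene DUSP5P1 was 18.37, both fractional, so a few reads there were shared between the copies. Summing both genes gave a log2 ratio of mean CPM of 1.28, compared with 1.31 for DUSP5 alone.

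DUSP4, a further nuclear phosphatase of this family, had many more counts and a narrower spread. Its WT libraries held 290.0, 301 and 321 CPM, its KD libraries 323, 331 and 324 CPM. Although the KD libraries lay above the WT libraries, WT replicate 3 at 321.1 CPM and KD replicate 1 at 323.2 CPM nearly touched. The ratio of means was 1.07, and the fitted log2 fold change of 0.10 (95% interval -0.29 to 0.49) did not pass (edgeR adjusted p = 0.870).

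SPRY4, an inhibitor that acts between receptors and RAF, was at 96.9, 155 and 124 CPM in WT replicates 1 to 3 and at 146, 221 and 219.9 CPM in KD replicates 1 to 3. The conditions overlapped, because KD replicate 1 lay below WT replicate 2, yet the KD library was higher within each replicate number, by 1.51, 1.43 and 1.77 times. The means were 125 ± 29.0 and 196 ± 43.1 CPM (SD, n = 3 each), a ratio of 1.56. The fitted log2 fold change was 0.64 in edgeR, with SE 0.24 and adjusted p = 0.245 without the block and SE 0.14 and adjusted p = 0.0206 with it. With 1 replicate number left out of the blocked fit, edgeR gave an adjusted p of 0.0199 without replicate 1, 0.0517 without replicate 2 and 0.117 without replicate 3.

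SPRY2, another Sprouty inhibitor of signalling from receptors, held 101.5, 101.4 and 106.5 CPM in WT, with 125, 164 and 125 CPM in KD. The WT libraries were nearly equal and every KD library lay above them, with KD replicate 2 the highest. The ratio of means was 1.34, from 103 ± 2.88 to 138 ± 22.3 CPM (SD, n = 3 each). The log2 fold change of 0.42 (SE 0.19) did not pass in edgeR without the block (adjusted p = 0.341) or with it (adjusted p = 0.143).

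SPRED1 and SPRED2, membrane-bound inhibitors of RAS activation by way of the RAS-inactivating protein NF1, had fitted changes of opposite sign. The 3 WT libraries held 63.6, 51.8 and 37.7 CPM of SPRED1, and the 3 KD libraries 45.4, 30.7 and 39.1 CPM. For SPRED2 the WT libraries held 84.9, 119 and 91.8 CPM, and the KD libraries 69.9, 139 and 119 CPM. Both overlapped between conditions: SPRED1 was lower in KD replicates 1 and 2 and 1.04 times higher in KD replicate 3, and SPRED2 was lower in KD replicate 1 and higher in KD replicates 2 and 3. The fitted log2 fold changes were -0.41 for SPRED1 (95% interval -0.97 to 0.15, edgeR adjusted p = 0.522) and 0.15 for SPRED2 (95% interval -0.45 to 0.75, edgeR adjusted p = 0.877). The sign of SPRED2 depended on 1 library, turning to -0.07 without KD replicate 2.

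ETV4 and ETV5, transcription factors of the PEA3 group, had the highest and second highest mean levels per kilobase in both conditions. Their library ranges overlapped in KD, and both genes stayed close to their WT levels. For ETV4 the WT libraries held 283, 368 and 337 CPM, against 257.5, 317 and 296 CPM in KD. It was lower in KD within every replicate number, with ratios of 0.861 to 0.911, while the conditions overlapped (log2 fold change -0.18, 95% interval -0.62 to 0.25, edgeR adjusted p = 0.770). For ETV5 they held 452, 414 and 355 CPM, against 376, 456 and 358 CPM in KD. Its log2 fold change was -0.04 (95% interval -0.48 to 0.41, edgeR adjusted p = 0.967), and the sign was positive, at 0.04, without WT replicate 1.

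PHLDA1, a small protein whose gene is induced by growth factor signals, had the most counts of the 10 genes. It was at 522, 470.3 and 461.5 CPM in WT replicates 1 to 3 and at 619.8, 506.5 and 466.9 CPM in KD replicates 1 to 3. The conditions overlapped, and the KD library was higher within each replicate number by 1.19, 1.08 and 1.01 times. The log2 fold change of 0.13 (95% interval -0.31 to 0.57) did not pass (edgeR adjusted p = 0.846).

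**Figure D2:**
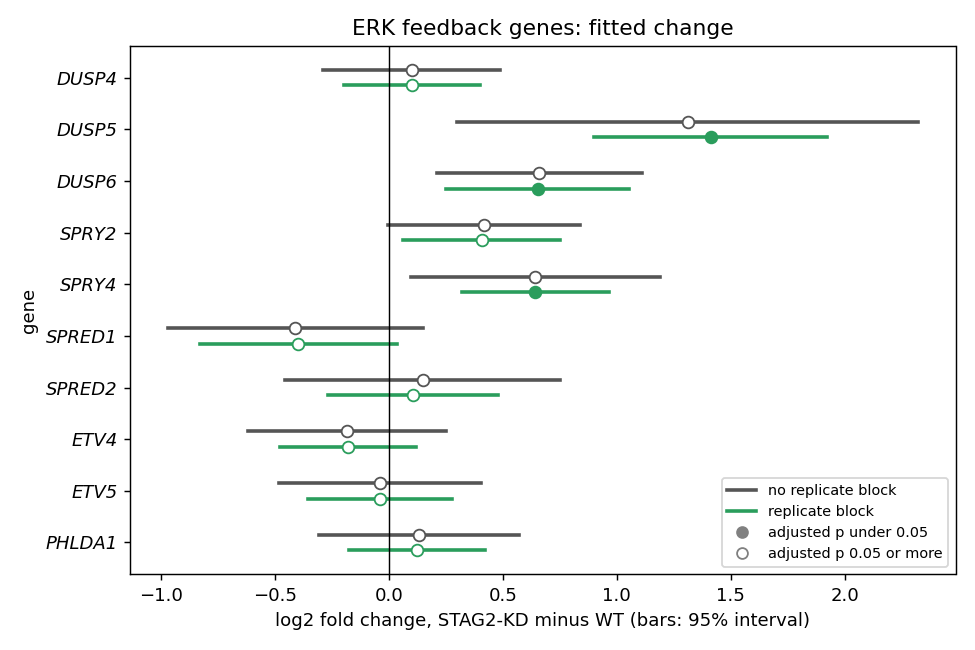
Fitted log2 fold change of KD minus WT for each feedback gene with its 95% interval from edgeR, without (grey) and with (green) the replicate block; filled points have an adjusted p under 0.05. Only the blocked values of DUSP5 (1.41), DUSP6 (0.65) and SPRY4 (0.64) are filled.

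Seen as counts over the 10 genes, every KD library exceeded every WT library for 4 of them (DUSP4, DUSP5, DUSP6 and SPRY2), against 11.8% of all tested genes, and lay below for none, against 10.5%. With 3 libraries against 3, an exact two-sided permutation test of a single gene cannot give a p below 0.1. Within replicate numbers, KD was above WT in all 3 pairs for 6 genes (DUSP4, DUSP5, DUSP6, SPRY2, SPRY4 and PHLDA1), against 23.0% of all genes, and below WT in all 3 pairs for 1 gene (ETV4), against 23.2%. The size of the ratio differed between pairs: replicate 1 gave DUSP5 its highest ratio, 3.57, and DUSP6 its lowest, 1.16, whereas the DUSP6 ratios were 1.99 and 1.68 in replicates 2 and 3.

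**Figure D3:**
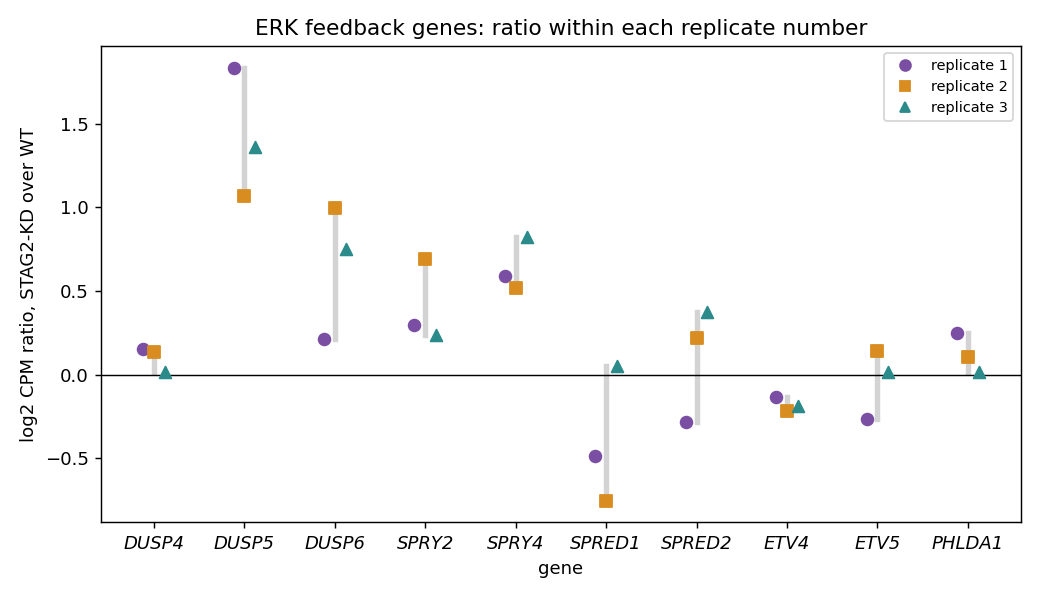
Log2 ratio of KD over WT CPM for each feedback gene within replicate numbers 1, 2 and 3, with the line at 0 marking equal levels and grey bars spanning the 3 ratios. DUSP5, DUSP6, SPRY2, SPRY4, DUSP4 and PHLDA1 lie above the line in every pair, ETV4 lies below it in every pair, and SPRED1, SPRED2 and ETV5 fall on both sides.

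Because long transcripts collect more reads, levels of the 10 genes were also ordered per kilobase of each gene's canonical transcript. In WT cells the order ran from ETV4 at 141 CPM per kilobase through ETV5 (99.7), PHLDA1 (82.0), DUSP4 (54.8), SPRY2 (45.1), SPRY4 (25.6), SPRED2 (21.8), DUSP6 (16.2) and SPRED1 (7.02) to DUSP5 at 4.63. The library ranges of the neighbours ETV5 and PHLDA1, SPRY4 and SPRED2, and SPRED1 and DUSP5 overlapped in WT, so their order was within the spread. ETV4, ETV5 and PHLDA1 kept their order of means in KD cells, but each range there overlapped that of its neighbour among them. In KD cells DUSP6, at 25.6 CPM per kilobase, stood 1 place above SPRED2 (24.2) with overlapping ranges, and DUSP5, at 11.5, stood above SPRED1 (5.28) with ranges that did not overlap. SPRY2 (60.3) and DUSP4 (58.7) stood in the reverse of their WT order in KD, with overlapping ranges.

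The profile of DUSP6 over the 6 libraries was compared with that of every tested gene of at least 1 CPM, 13534 genes, by the Euclidean distance between log2(CPM + 0.5) values centred on each gene's mean. The nearest were HIRA, a histone chaperone (0.146), MTHFD1L, a mitochondrial folate enzyme (0.163), IDUA, a lysosomal enzyme (0.176), R3HDM2 (0.181) and MICA, a ligand of an immune receptor (0.222). For HIRA, as an example, the WT libraries held 41.9, 37.5 and 35.4 CPM, and the KD libraries 50.7, 66.2 and 60.3 CPM. The nearest feedback gene was SPRY2 at 0.438, and SPRY4 followed at 0.706. DUSP5 was the farthest of them at 1.79. These distances are descriptions over 6 libraries of 1 cell line.

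DUSP6 lies on chromosome 12 (89741012 to 89746278, minus strand) and SPRY4 on chromosome 5 (141689992 to 141706020, minus strand) in GRCh37, the equivalent of the hg19 build of the files. Their upstream sequences are shown because both genes passed the blocked test. RefSeq promoter sequences on GRCh38.p14 were matched for 6 of the 10 genes, at 9 start sites; DUSP4, DUSP5, ETV4 and ETV5 were not matched. Each line gives the 250 bases before the annotated start, 5′ to 3′ on the minus strand, for DUSP6 at chr12:89352502-89352751 and SPRY4 at chr5:142324248-142324497, with matched motif letters in capitals.
DUSP6: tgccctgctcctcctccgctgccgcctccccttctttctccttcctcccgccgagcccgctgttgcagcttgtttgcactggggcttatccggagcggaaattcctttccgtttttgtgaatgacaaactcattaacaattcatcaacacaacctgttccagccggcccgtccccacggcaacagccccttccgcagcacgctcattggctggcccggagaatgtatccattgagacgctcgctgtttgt
SPRY4: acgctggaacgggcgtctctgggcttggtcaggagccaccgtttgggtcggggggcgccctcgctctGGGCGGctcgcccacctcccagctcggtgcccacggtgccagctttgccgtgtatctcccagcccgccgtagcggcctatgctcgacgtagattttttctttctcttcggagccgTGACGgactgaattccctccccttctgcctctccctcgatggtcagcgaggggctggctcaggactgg
The motifs searched on both strands were the cyclic AMP response element (TGACGTCA) and its shorter core (TGACG, contained in the full element), the AP-1 site (TGANTCA), an ETS site in the form CCGGAA, the EGR site (GCGGGGGCG), the GC box (GGGCGG, which can overlap the EGR site) and the CArG box. The shorter ETS core GGAA was not searched, and it occurs in both windows shown. None of the searched forms occurred in the DUSP6 window, which does not mean that it lacks an ETS core. The window was 57.2% GC, near the median of 58% over all 35116 RefSeq promoters of this length. The SPRY4 window, 65.6% GC, held the core TGACG 68 bases and the GC box 183 bases upstream of the start. Among all promoters, 21.2% held the core TGACG and 42.6% the GC box, so both are common, while 14.5% held the ETS form CCGGAA, 6.57% the AP-1 site, 4.72% the EGR site, 1.65% the full cyclic AMP element and 1.16% the CArG box. A match is a description of letters and not evidence of binding.

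Relatives of the feedback genes showed 1 call in edgeR, against 2.59% of all tested genes. Over all tested genes, 7486 had a positive and 8119 a negative log2 fold change. Of 16 tested members of the DUSP, SPRY, SPRED, ETV and PHLDA families outside the 10, SPRY1 rose, 10 had a positive and 6 a negative log2 fold change, and the median was 0.29. That median was 0.48 without WT replicate 3, 0.17 without KD replicate 1 and 0.08 without both replicate 1 libraries. SPRY1, another Sprouty inhibitor, went from 3.20, 7.28 and 4.59 CPM in the WT libraries to 17.9, 34.5 and 22.7 CPM under KD, without overlap. Its log2 fold change was 2.31 (SE 0.39, edgeR adjusted p = 0.0150), and the call was lost without WT replicate 3 (adjusted p = 0.0922), KD replicate 2 (0.0918) or KD replicate 3 (0.0722). The 3 relatives with the highest CPM, which is not corrected for transcript length, did not pass: PHLDA2 had means of 237.5 CPM in WT against 212 CPM in KD (edgeR adjusted p = 0.895), DUSP14 at 65.4 and 78.1 (0.688), and DUSP3 at 59.5 and 83.9 (0.239).

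Genes encoding the cascade itself gave no call in edgeR, against 2.59% of all tested genes. Of 31 tested genes among 34 for receptors, adaptors, RAS, RAF, MEK, ERK and RSK proteins, 13 had a positive and 18 a negative log2 fold change, with a median of -0.16. The median lay nearer to 0 without WT replicate 1 (-0.04), 2 (-0.03) or 3 (-0.03) or KD replicate 1 (-0.06) or 2 (-0.10), and was 0.03 in the blocked fit without both replicate 2 libraries. At an unadjusted p under 0.05, 2 of the 31 were higher and 3 lower, near the 7.77% and 6.98% over all genes. DESeq2 called 1 of them and limma-voom none. Those with the highest CPM were SHC1, an adaptor below receptors, with means of 367.5 CPM in WT against 451 CPM in KD, ERBB3, a receptor, at 253.5 and 224, and RPS6KA1, a kinase activated by ERK, at 199 and 205 (edgeR adjusted p = 0.651, 0.805 and 0.971). With the replicate block 3 of the 31 passed in edgeR, 1 upward and 2 downward. Over all 15605 tested genes 1486 passed in either direction (5.10% upward and 4.42% downward), a share near that of the cascade list. These 3 cascade genes are named here after their values were seen. MAP2K1, which encodes the kinase MEK1, was higher (log2 fold change 0.68, edgeR adjusted p = 0.0190). PTPN11, an adaptor phosphatase (-0.76, edgeR adjusted p = 0.0222), and PEBP1, an inhibitor of RAF (-0.62, edgeR adjusted p = 0.0261), were lower.

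The other output genes were ERK-responsive targets such as immediate early genes and the factors that drive them. Of 17, 16 were tested and 1 passed, against 2.59% of all tested genes. Log2 fold changes were positive for 12 and negative for 4, against 7486 and 8119 of all tested genes. The median of the list was 0.29. EGR1, an immediate early transcription factor, went from 11.3, 35.2 and 13.3 CPM in the WT libraries to 106, 161 and 91.6 CPM under KD, without overlap. It rose by 2.58 on the log2 scale (SE 0.44, edgeR adjusted p = 0.0150), and the call was lost without WT replicate 3 (adjusted p = 0.0922) or KD replicate 2 (0.0732). CCND1, which encodes cyclin D1, had 121, 387 and 306 CPM in WT, against 395, 533 and 569.5 CPM in KD. FOSL1, an AP-1 subunit, had 79.8, 307 and 393 CPM in WT, against 445, 489 and 466 CPM in KD. PLAUR, the urokinase receptor, had 43.5, 174 and 169.5 CPM in WT, against 241, 629.5 and 595 CPM in KD. In each of these 3 genes WT replicate 1 was the lowest library and the conditions did not overlap. None of the 3 passed in edgeR without the block (adjusted p = 0.308, 0.450 and 0.1004). Every KD library lay above every WT library for 7 of the 16, against 11.8% of all tested genes, and below for 0, against 10.5%. With the block 6 of the 16 passed, all upward, against 5.10% of all tested genes upward and 4.42% downward: EGR1, PLAUR, LIF, CCND1, SH2B3 and IER2. EPHA2, a receptor tyrosine kinase named here after its values were seen, had a fitted change of the opposite sign, with 1.64, 26.8 and 26.2 CPM in WT against 2.77, 5.72 and 5.51 CPM in KD (log2 fold change -1.97, edgeR adjusted p = 0.280). KD was lower in replicates 2 and 3 and higher in replicate 1, and EPHA2 was called lower without WT replicate 1, without both replicate 1 libraries with or without the block, and without the filter on low counts. DUSP6 differed from CCND1, FOSL1 and PLAUR in that WT replicate 1 was its highest WT library.

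**Figure D4:**
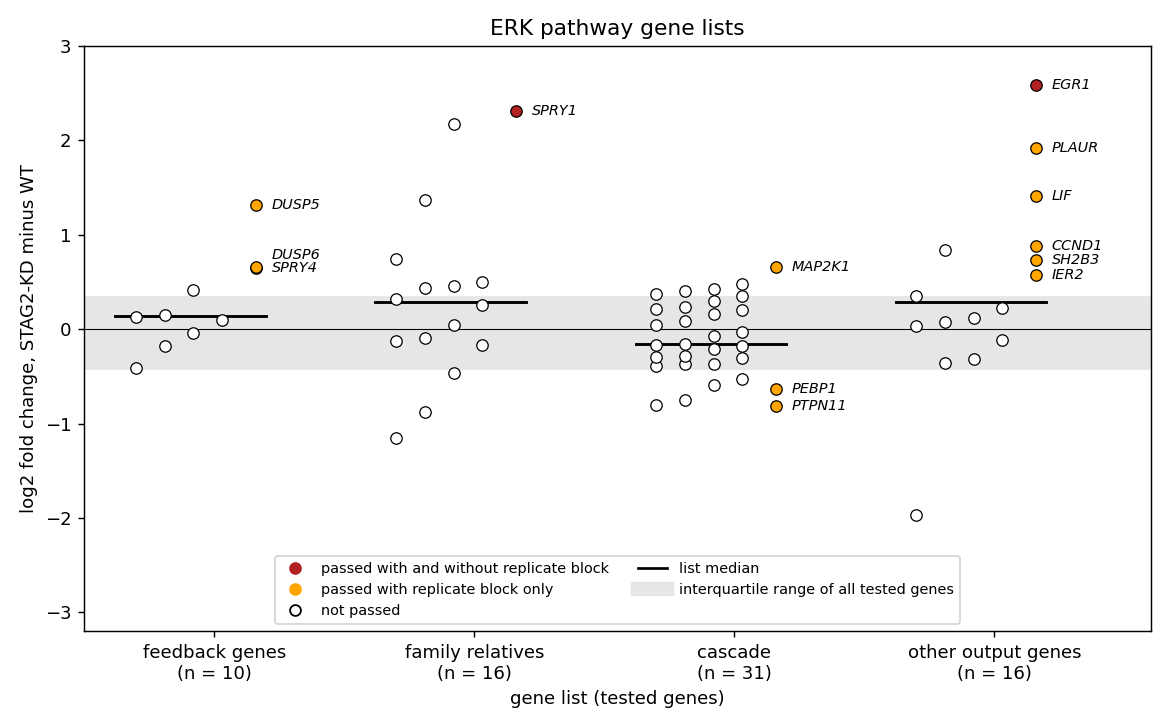
Log2 fold change of KD minus WT for every tested gene of 4 lists (feedback genes n = 10, family relatives n = 16, cascade n = 31, other output genes n = 16), with bars for list medians (0.14, 0.29, -0.16 and 0.29) and a grey band for the interquartile range of all tested genes. Red points (SPRY1 and EGR1) passed with and without the replicate block, orange points passed with it only, and horizontal position within a list has no meaning.

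Markers of the labelled cell type and of other cell types were read in the same libraries. All 10 melanocyte lineage markers were detected, with summed levels of 2094 to 6584 CPM in WT and 1408 to 2811 CPM in KD, and S100B was the marker that passed, downward. With the replicate block 6 of these 10 were called lower, against 4.42% of all tested genes. The shift was not uniform. TYR had means of 216 CPM in WT and 276 CPM in KD (blocked log2 fold change 0.51, edgeR adjusted p = 0.129). S100A1 stayed near its WT level (blocked log2 fold change -0.05, edgeR adjusted p = 0.912). Levels of several melanocyte markers were highest in replicate 1 of both conditions. PMEL held 3370, 662 and 684 CPM in WT replicates 1 to 3 and 1254, 358 and 364 CPM in KD replicates 1 to 3. DCT held 1432, 228.5 and 228.2 CPM in WT, against 421, 106 and 109 CPM in KD. SOX10 went the other way, lowest in replicate 1 of each condition. The summed immune markers were 26.9 to 40.8 CPM in WT and 91.1 to 128 CPM in KD: of 5, CD68, a lysosomal protein of macrophages that other cells also make, rose, the T cell marker CD3E was at 0 in every library, and 2 were under 1 CPM throughout. Fibroblast markers summed to 4.78 to 93.6 CPM in WT and 3.49 to 23.4 CPM in KD, epithelial markers to 153 to 460 CPM in WT and 171 to 306 CPM in KD, and none of either list passed without the block. With it COL1A1, a collagen gene of the fibroblast list, was called lower (log2 fold change -1.67, edgeR adjusted p = 0.00232), and no epithelial marker passed. COL1A1 was lowest in replicate 1 of both conditions, with 2.66, 85.1 and 58.1 CPM in WT against 1.40, 19.4 and 17.7 CPM in KD. The part of these shifts in the feedback gene values was not tested, and in bulk RNA fewer cells of a type and less RNA per cell cannot be told apart.

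In GRCh37 the remaining genes lie on chromosome 8 (DUSP4, 29190581 to 29208201, minus strand), chromosome 10 (DUSP5, 112257665 to 112271291, plus strand), chromosome 13 (SPRY2, 80910111 to 80915261, minus strand), chromosome 15 (SPRED1, 38545037 to 38649450, plus strand), chromosome 2 (SPRED2, 65537985 to 65659771, minus strand), chromosome 17 (ETV4, 41605212 to 41656988, minus strand), chromosome 3 (ETV5, 185764103 to 185828107, minus strand) and chromosome 12 (PHLDA1, 76419227 to 76425556, minus strand). Limits of counting touch some of them. SPRED1 and PHLDA1 had fractional expected counts in all 6 libraries, and where their divided reads also matched was not tested. ETV4 overlaps DHX8 (up to 3091 counts) and PHLDA1 overlaps PHLDA1-AS1 (up to 820 counts) on the opposite strand, and ETV5 overlaps DGKG (up to 1092 counts) on its own strand. The library kit keeps strand, but the strand setting of the counting was not given in the sources used here, so reads of genes that overlap on opposite strands may not have been kept apart.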

How the data were processed

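RNA-seq was analysed from 3 WT and 3 KD libraries of M14 cells. The authors deposited expected counts per gene, which RSEM (1.3.0) estimated from reads aligned to hg19 with STAR (2.7.0f). These values were neither scaled nor filtered. Counts were rounded to whole numbers, genes with low counts were removed with filterByExpr, and KD was compared with WT by edgeR's quasi-likelihood test (edgeR 4.0.16, R 4.3.3) on TMM-normalised library sizes, with Benjamini-Hochberg adjustment over all 15605 genes and a threshold of 0.05. CPM values use the same library sizes. Scripts were tested on simulated data. DESeq2 (1.42.0), limma-voom (3.58.1), other filters and scalings, omission of each library and a replicate block were alternatives.

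Replicate numbers are shared between conditions in the labels. Over 11395 genes, deviations from the condition means correlated at 0.278 to 0.495 between same-numbered libraries and at -0.396 to 0.205 between others. Unequal numbers also correlated positively for WT replicate 2 with KD replicate 3 (0.205) and WT replicate 3 with KD replicate 2 (0.151). The main fit left the replicate number out. Among the fits, only the blocked ones treated equal numbers as pairs. The ratios and counts within replicate numbers, given as descriptions, also paired equal numbers. This pairing was taken from the data and not from a stated design.

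All 10 feedback genes are named, with STAG2, the called and the 3 genes with the highest CPM of each other list, and the 5 genes nearest to DUSP6 in profile. The members and lists were chosen with earlier results of these data known. The other assays of the study were not analysed here.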

Additional observations from a re-analysis of the deposited data

How the results depend on the processing

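The 404 genes called over the whole table (273 higher, 131 lower) became 979 with DESeq2 (547 higher, 432 lower), 1103 without a filter on low counts (573 and 530), 1486 with the replicate block (796 and 690), 137 at an adjusted p under 0.01, and 121 to 531 when 1 library was left out. Alternatives chosen after seeing the data left replicate numbers out of both conditions. Without replicate 1, 757 of 15991 tested genes were called. The blocked fit called 1441 of 15991, 1245 of 15961 and 1504 of 15971 tested genes without replicate 1, 2 and 3. Of the 10 feedback genes, 0 were called with any 1 library left out, 1 without the filter and 3 with the replicate block. There were 2 without both replicate 1 libraries, and 3, 1 and 1 in the blocked fits without replicate 1, 2 and 3. The blocked counts of 1 of 10 were near the shares over all genes. Family relatives gave 0 calls at an adjusted p under 0.01 and 0 to 1 with a library left out (0 without WT replicate 3, KD replicate 2 or KD replicate 3). Cascade genes gave 1 with DESeq2, 2 without the filter, 3 with the block and 1 without both replicate 1 libraries. In the blocked fits they gave 3, 1 and 3 of 32, 31 and 31 tested, near or below the shares over all genes. The other output genes gave 2, 6, 6, 4, and 6, 6 and 7 in the same order, with EPHA2 the one gene called lower (without the filter, without both replicate 1 libraries with or without the block, and without WT replicate 1), 0 at an adjusted p under 0.01 and 0 to 2 with a library left out. STAG2 stayed lower, at -2.63 to -1.68 on the log2 scale, but did not pass without WT replicate 2, WT replicate 3, KD replicate 2 or KD replicate 3. The sign turned for SPRED2 (-0.066 to 0.392 with a library left out, -0.066 being without KD replicate 2, and -0.048 in the blocked fit without replicate 3) and for ETV5 (-0.153 to 0.040 with a library left out, positive at 0.040, 0.005 and 0.017 without WT replicate 1, KD replicate 1 and KD replicate 3, and 0.090 and 0.084 without both replicate 1 libraries, unblocked and blocked). The blocked fit changed no other call among the feedback genes. The cause of these differences between settings was not tested.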
